A study of Mus musculus with 6 samples.

Results

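The mouse let-7 and miR-98 family was described here in liver small RNA libraries. Its 9 members, mmu-let-7a-5p, mmu-let-7b-5p, mmu-let-7c-5p, mmu-let-7d-5p, mmu-let-7e-5p, mmu-let-7f-5p, mmu-let-7g-5p, mmu-let-7i-5p and mmu-miR-98-5p, were selected by name, as the mature miRNAs cut from the 5' arm of let-7 or miR-98 hairpins. All 9 were found among the 1039 entries of the deposited table, and all 9 were among the 548 entries that passed the filter on low values. The J group held 3 libraries from ICR wild-type mice that received JTXK granule, a Chinese herbal formula, by gavage for 8 weeks. The M group held 3 libraries from ICR wild-type mice that received sterile water in its place. Both groups had eaten a high-fat diet (HFD) for 12 weeks before the gavage, and the labels gave their age as 30 weeks. The comparison therefore contrasted JTXK with water on a shared HFD background, and mice on a standard diet were not analysed here. Each library came from whole liver, in which fewer cells of a type and less RNA per cell cannot be told apart.

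A miRNA is cut from a hairpin precursor by the nucleases Drosha and Dicer, and 1 strand of the resulting duplex is loaded into an Argonaute protein, where its seed (bases 2 to 8 from the 5' end) pairs with target mRNAs and lowers their output. The let-7 family is scarce in embryonic and stem cells, where the RNA-binding proteins Lin28a and Lin28b block the maturation of its precursors, and it accumulates as cells differentiate. Known let-7 targets include Hmga2, Myc, Ras genes and components of insulin and IGF signalling such as the insulin receptor, Igf1r and Irs2, and let-7 levels are known to affect glucose handling in mice.

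The mature sequences of the members are shown to make their relatedness visible, since a read with 1 wrong base can pass from one member to another. They were taken from RefSeq on GRCm38, written 5' to 3', with the seed in capitals.

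mmu-let-7a-5p: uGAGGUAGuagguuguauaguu

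mmu-let-7b-5p: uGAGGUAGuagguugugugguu

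mmu-let-7c-5p: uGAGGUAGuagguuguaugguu

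mmu-let-7d-5p: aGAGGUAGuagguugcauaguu

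mmu-let-7e-5p: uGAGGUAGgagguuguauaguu

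mmu-let-7f-5p: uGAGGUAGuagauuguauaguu

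mmu-let-7g-5p: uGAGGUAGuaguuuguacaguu

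mmu-let-7i-5p: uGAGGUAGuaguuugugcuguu

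mmu-miR-98-5p: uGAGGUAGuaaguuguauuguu

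All 9 sequences were matched in the reference, all were 22 bases long and all shared the seed GAGGUAG. Of the 22 positions, 14 carried the same base in every member. Among the 36 pairs of members, 4 differed by a single base, and the largest number of differences was 6. Counting from 1 at the 5' end, with the base of mmu-let-7a-5p first, mmu-let-7c-5p differed from it by A19G, mmu-let-7e-5p by U9G and mmu-let-7f-5p by G12A. With the base of mmu-let-7b-5p first, mmu-let-7c-5p differed from it by G17A. Other members lay further away, with U1A and U16C in mmu-let-7d-5p, G12U and U18C in mmu-let-7g-5p, and G11A and A19U in mmu-miR-98-5p. The mismatches allowed when the reads were matched are not given in the sources used here, so how reads of these 4 pairs were divided is not known, and the level of each member in such a pair carries that uncertainty.

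The 9 members are encoded by 12 hairpin genes on 7 chromosomes. The submitters' processing notes name mm9, whereas positions below are GRCm38 with GENCODE vM21 annotation, and the deposited table itself holds no coordinates. On the minus strand of chromosome 13, Mirlet7d (chr13:48536012-48536114), Mirlet7f-1 (chr13:48537829-48537917) and Mirlet7a-1 (chr13:48538179-48538272) lie in an exon of the lincRNA 6720427I07Rik, with 1714 and 261 bases between neighbours. On chromosome 15, Mirlet7c-2 (chr15:85706603-85706697) and Mirlet7b (chr15:85707319-85707403) lie in an exon of the noncoding transcript Lncppara, 621 bases apart. Mirlet7f-2 (chrX:151912346-151912428) and Mir98 (chrX:151913214-151913321) share an intron of Huwe1, a ubiquitin ligase gene. Mirlet7g (chr9:106178840-106178927) is intronic in Wdr82, and Mirlet7i (chr10:122985640-122985724) lies in an exon of the transcribed pseudogene D630033A02Rik. The other 3 hairpins stand beside miRNAs of the miR-99 and miR-125 families, namely Mirlet7a-2 (chr9:41536716-41536811) with Mir100 and Mir125b-1, Mirlet7c-1 (chr16:77599657-77599750) with Mir99a and Mir125b-2 in an intron of Mir99ahg, and Mirlet7e (chr17:17830352-17830444) with Mir99b and Mir125a in an intron of Spaca6. mmu-let-7a-5p, mmu-let-7c-5p and mmu-let-7f-5p each come from 2 hairpins of identical mature sequence, so their reads cannot be assigned to a locus.

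Levels were given as RPM, the reads of a miRNA per 1000000 reads of all table entries in that library. The libraries held 2626353 to 4314134 reads each, so that 1 read was worth 0.232 to 0.381 RPM. M replicate 1 stood apart, since 33 tested miRNAs were 4-fold or more above all the other libraries there, against 0 to 3 such miRNAs elsewhere. In that library a list of 5 leukocyte miRNAs, none at 0 in any library, summed to 4228 RPM, against 595 to 866 RPM in J and 796 and 1080 RPM in the other M libraries. A list of 3 hepatocyte miRNAs led by mmu-miR-122-5p summed to 328849 to 377864 RPM in J and 332971 to 379599 RPM in M. Results that rest on M replicate 1 are given with and without it below.

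Across all 6 libraries, mmu-let-7f-5p was the most abundant member, from 15502 to 19264 RPM. mmu-let-7g-5p followed with 10283 to 16313 RPM, then mmu-let-7a-5p with 6804 to 11844 RPM and mmu-let-7c-5p with 5590 to 7692 RPM. These 4 members held 81.0% to 87.7% of the family's reads in each library. Below them stood mmu-let-7i-5p with 2009 to 7005 RPM, mmu-let-7b-5p with 1669 to 2565 RPM and mmu-let-7d-5p with 1036 to 1851 RPM. mmu-miR-98-5p (215 to 456 RPM) and mmu-let-7e-5p (177 to 337 RPM) were the scarcest, and the mean of mmu-let-7f-5p was 67.5-fold that of mmu-let-7e-5p. Each member exceeded the next in all 6 libraries, except that mmu-let-7c-5p exceeded mmu-let-7i-5p in 5 of 6 and mmu-miR-98-5p exceeded mmu-let-7e-5p in 3 of 6. The last pair therefore had no fixed order. Only between mmu-let-7d-5p and mmu-miR-98-5p did the ranges of neighbours not overlap, a step of 4.88-fold in the mean.

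**Figure D1:**
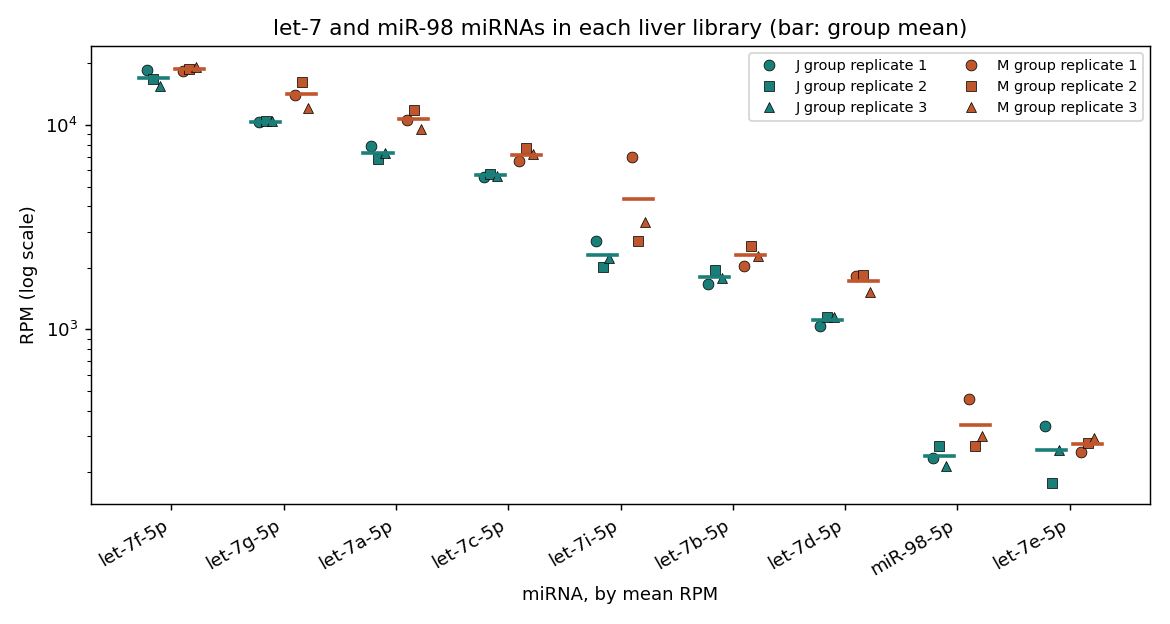
RPM of the 9 members (log axis) in each of the 3 J and 3 M libraries, 1 point per library with a line at the group mean. The J points of mmu-let-7a-5p, mmu-let-7d-5p and mmu-let-7g-5p lie wholly below the M points, and M replicate 1 stands alone at 7005 RPM for mmu-let-7i-5p.

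The family as a whole took a smaller part of the reads in the J livers. The 9 members together summed to 48405, 45298 and 44524 RPM in J replicates 1, 2 and 3 and to 61089, 62369 and 55874 RPM in M replicates 1, 2 and 3. Every J library was below every M library. The means were 46076 ± 2054 RPM (SD, n = 3) in J and 59777 ± 3440 RPM (SD, n = 3) in M, 22.9% lower in J, a log2 ratio of -0.38 that was given no test. In percent of all reads this was 4.45% to 4.84% in J and 5.59% to 6.24% in M. The log2 ratio was -0.36 without M replicate 1. When the libraries were instead scaled by their median ratio to a reference, the log2 ratio was -0.26 and the groups overlapped, with the highest J library at 55523 and the lowest M library at 53011. The difference between group means, 13702 RPM, was made up mainly of mmu-let-7g-5p (27.5%) and mmu-let-7a-5p (24.3%). mmu-let-7i-5p gave 14.9% of it, but 5.45% when M replicate 1 was left out, while the most abundant member, mmu-let-7f-5p, gave 13.3%.

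The J and M groups were then compared member by member with limma on log2(RPM + 1), and a miRNA was called when its log2 fold change (J minus M) passed 0.3 in size with an unadjusted p below 0.05. Of the 9 members, 4 fell in J, namely mmu-let-7a-5p, mmu-let-7c-5p, mmu-let-7d-5p and mmu-let-7g-5p, and 0 rose. The same thresholds called 5.29% of the 548 tested miRNAs in either direction and 3.83% as lower in J. Among the 138 miRNAs with a mean above 100 RPM, as all members have, 10.1% were called lower in J. All 9 log2 fold changes were below 0, as were 58.9% of all tested, with a median of -0.44 over the members and -0.13 over all tested miRNAs. In 6 of the 9, every J library was below every M library, a pattern found in 9.31% of all tested miRNAs and in 14.5% of those above 100 RPM. After Benjamini-Hochberg adjustment over the 548, no member passed 0.05, with adjusted p from 0.432 to 0.872 in limma. Sequencing used 3 mice of each group, which matches the 3 libraries a group, so p-values measure the spread between mice.

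Both mmu-let-7a-5p and mmu-let-7d-5p fell in J. mmu-let-7a-5p, which comes from hairpins on chromosomes 13 and 9, had 7862, 6804 and 7316 RPM in J and 10551, 11844 and 9585 RPM in M, so the groups did not overlap. Its mean was 7328 ± 529 RPM (SD, n = 3) in J and 10660 ± 1133 RPM (SD, n = 3) in M, 31.3% lower, with a log2 fold change of -0.54. The 95% interval of that change ran from -0.87 to -0.21, with an unadjusted p of 0.0063 and an adjusted p of 0.432 in limma. mmu-let-7d-5p, which comes from chromosome 13 and alone starts with A, had 1036, 1149 and 1145 RPM in J and 1820, 1851 and 1529 RPM in M, again without overlap. It was 35.9% lower in J, with a log2 fold change of -0.64 (95% interval -1.03 to -0.25), an unadjusted p of 0.00584 and an adjusted p of 0.432 in limma. These were the smallest p-values of the family, and both calls held when any 1 of the 6 libraries was left out.

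mmu-let-7f-5p comes from hairpins on chromosome 13 and the X chromosome. It had 18676, 16744 and 15502 RPM in J and 18269, 18863 and 19264 RPM in M. J replicate 1 reached into the M range, and so the groups overlapped. Its log2 fold change of -0.15 (95% interval -0.44 to 0.14) was not called in limma (adjusted p = 0.71). It was -0.088 without J replicate 3, -0.044 under median-of-ratios scaling, -0.030 in edgeR and -0.026 in DESeq2. In the other direction it was -0.22 without J replicate 1 and -0.19 without the most abundant miRNA in the scaling. Without M replicate 1 it was -0.17, and every J library was then below every M library.

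mmu-let-7g-5p, from Wdr82, fell in J. It had 10283, 10431 and 10428 RPM in J, close to one another, and 14060, 16313 and 12064 RPM in M. All J libraries were below all M libraries, 26.6% lower in the mean, and the log2 fold change was -0.44 (95% interval -0.78 to -0.09). The unadjusted p was 0.0198 and the adjusted p was 0.71 in limma. The call was lost under median-of-ratios scaling (log2 fold change -0.33), in edgeR (-0.34) and in DESeq2 (-0.34). It was also lost without J replicate 3, where the log2 fold change was -0.44 with an unadjusted p of 0.0555 in limma, or without M replicate 2, where it was -0.33.

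mmu-let-7b-5p, from chromosome 15, and mmu-let-7c-5p, from chromosomes 15 and 16, differ by 1 base and gave similar fold changes. mmu-let-7c-5p had 5590, 5755 and 5645 RPM in J and 6630, 7692 and 7176 RPM in M, and mmu-let-7b-5p had 1669, 1959 and 1781 RPM in J and 2048, 2565 and 2292 RPM in M. For both, every J library was below every M library. The log2 fold change was -0.34 (95% interval -0.64 to -0.03) for mmu-let-7c-5p, with an unadjusted p of 0.0358 and an adjusted p of 0.71 in limma. It was -0.35 (95% interval -0.74 to 0.04) for mmu-let-7b-5p, which was not called (unadjusted p = 0.0705, adjusted p = 0.71 in limma). The call of mmu-let-7c-5p was lost when any library other than M replicate 1 was left out, and its log2 fold change ran from -0.39 to -0.28 over the 6 omissions. It was also lost under quantile normalization, where the log2 fold change was -0.07, and under median-of-ratios scaling, edgeR and DESeq2, where it was -0.23 in each. With no filter on low values it was lost at -0.34 (unadjusted p = 0.0672 in limma), while mmu-let-7i-5p was called. Under quantile normalization mmu-let-7b-5p had -0.09. mmu-let-7b-5p was called only without M replicate 1 (log2 fold change -0.43) and in the unmoderated linear model on RPM.

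mmu-let-7i-5p had the largest fitted change of the members, but 1 library carried much of it. It had 2717, 2009 and 2236 RPM in J and 7005, 2693 and 3370 RPM in M, so M replicate 1 was 2.08-fold above the next highest library. J replicate 1 exceeded M replicate 2, and the groups overlapped. Its log2 fold change was -0.79 (95% interval -1.62 to 0.03, unadjusted p = 0.0564, adjusted p = 0.71 in limma), and -0.39 without M replicate 1. It was called in 4 of 18 alternatives, among them the fit without M replicate 2. The leukocyte list was also highest in M replicate 1, as given above, as were the stromal and bile duct epithelium lists given below. The hepatocyte, endothelial and red blood cell lists were not highest there. The part of these lists in this result was not tested.

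mmu-miR-98-5p, also from Huwe1, had 236, 270 and 215 RPM in J and 456, 270 and 301 RPM in M. Every J library was below every M library, but J replicate 2 and M replicate 2 were at the same level when rounded, so the groups only just failed to overlap. M replicate 1 was again the highest library, at 1.51-fold the next. The log2 fold change was -0.48 (95% interval -1.08 to 0.12) and -0.25 without M replicate 1, and neither was called in limma. mmu-let-7e-5p, from Spaca6, had 337, 177 and 256 RPM in J and 251, 278 and 293 RPM in M. Its J libraries held both the highest and the lowest value, and its log2 fold change of -0.14 (95% interval -0.78 to 0.50) was not called.

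**Figure D2:**
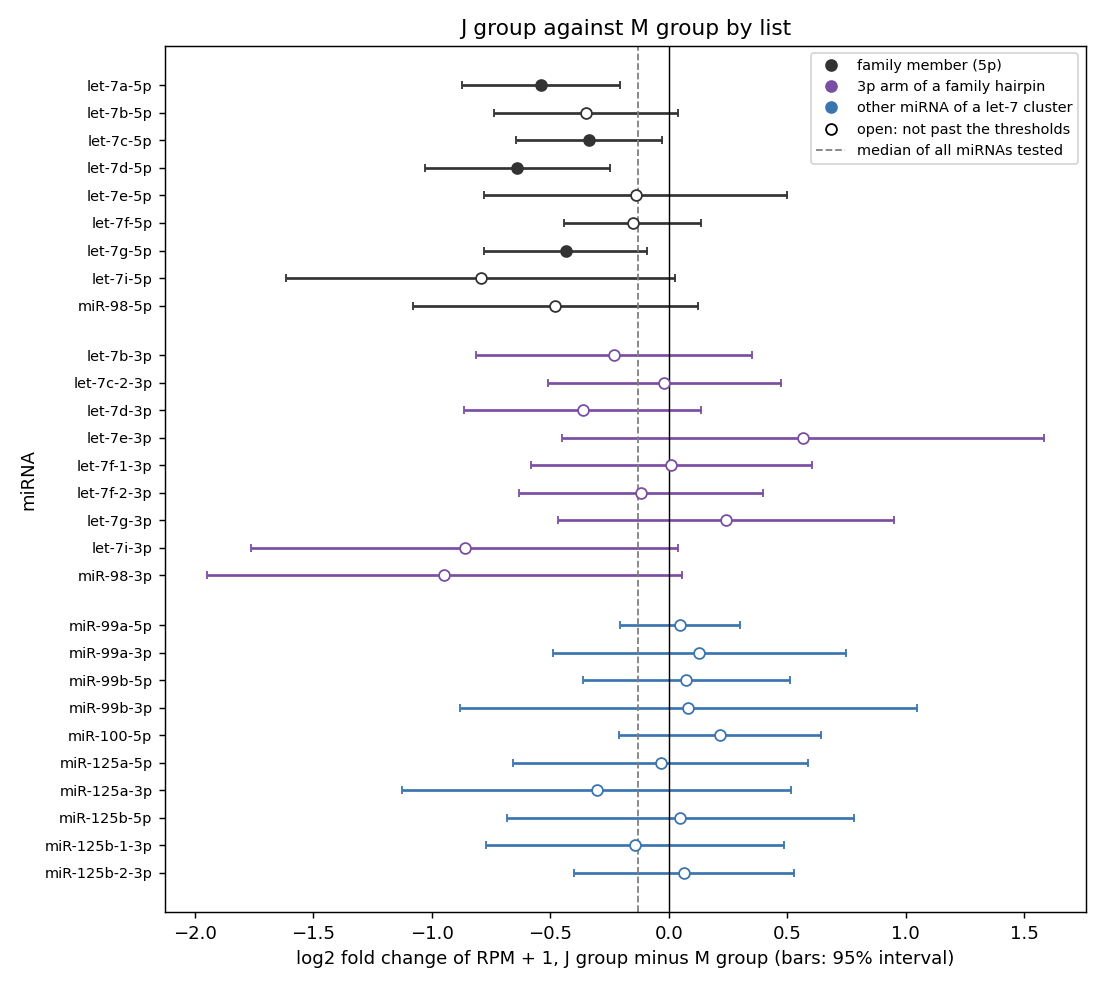
Log2 fold change (J minus M) from limma with its 95% interval for the 9 members, the 3p arms and the cluster partners, with the median of all 548 tested miRNAs (-0.13) as a line. The intervals of 4 members lie wholly below 0, and those of the cluster partners all include 0.

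The called members depended on how reads were scaled and modelled. On the whole reads recovered from the RPM values, edgeR's quasi-likelihood test called 1 of 9 members, mmu-let-7d-5p, where it called 4.93% of all tested miRNAs as lower in J. DESeq2 called the same member alone, where it called 4.2% as lower. In mmu-let-7a-5p the log2 fold change was -0.43 in both, with an unadjusted p of 0.0537 in edgeR and 0.0739 in DESeq2. Median-of-ratios scaling left 2 members called, mmu-let-7a-5p and mmu-let-7d-5p, with 2.37% of all tested miRNAs called lower. Quantile normalization left 2, mmu-let-7a-5p and mmu-let-7g-5p, with 2.01% called lower, and mmu-let-7d-5p lost its call at a log2 fold change of -0.45 (unadjusted p = 0.0725 in limma). Without J replicate 3, 2 members were called (5.84% of all tested called lower), and without M replicate 1, 5 members were called (4.01%). The median of all tested miRNAs moved from -0.13 to -0.04 under median-of-ratios scaling and to 0.08 under quantile normalization. The median of the members lay 0.20 to 0.42 below that of all tested miRNAs in every setting run. mmu-let-7a-5p was called in 16 of 18 alternatives and mmu-let-7d-5p in 17, whereas mmu-let-7e-5p, mmu-let-7f-5p and mmu-miR-98-5p were called in none.

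**Figure D3:**
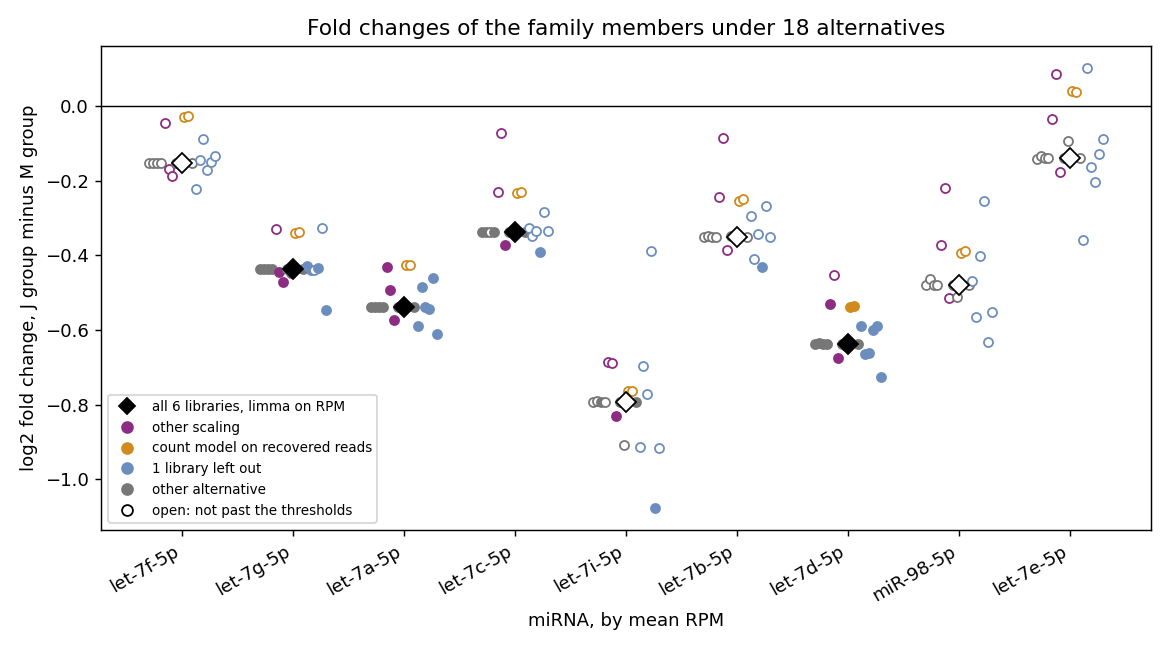
Log2 fold change (J minus M) of each member in the reported fit and in the 18 alternatives, 1 point per setting, with the reported fit as a diamond and filled points where the member was called. All points of mmu-let-7a-5p lie at or below -0.43 and those of mmu-let-7d-5p at or below -0.45, and only mmu-let-7e-5p has points on both sides of 0.

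Because RPM values depend on all other miRNAs, the share of each member within the family was also computed. mmu-let-7f-5p held 38.6%, 37.0% and 34.8% of the family's reads in J and 29.9%, 30.2% and 34.5% in M. Every J library was above every M library, by 5.25 percentage points in the mean (two-sided exact permutation p = 0.1). The share of mmu-let-7a-5p was 15.9% ± 0.766 in J and 17.8% ± 1.03 in M (SD, n = 3 each), and that of mmu-let-7d-5p was 2.42% ± 0.240 and 2.89% ± 0.137, both lower in every J library (exact permutation p = 0.1 each). With 3 libraries against 3, 0.1 is the smallest p this test can give. The shares of the other 6 members overlapped between groups, with exact permutation p from 0.5 to 0.9. mmu-let-7i-5p held 11.5% of the family in M replicate 1 and 4.32% to 6.03% in the other 5 libraries. The mean compositions of the groups differed by 5.71 percentage points of the family's reads, the sum of the shares that were higher in J, which equals the sum of those that were lower. Pairs of libraries within a group differed by 2.61 to 7.47 points with a mean of 5.49, and pairs between groups by 2.22 to 9.94 points with a mean of 6.85, and these ranges overlapped. These 9 shares sum to 100 in each library and are not independent of one another.

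**Figure D4:**
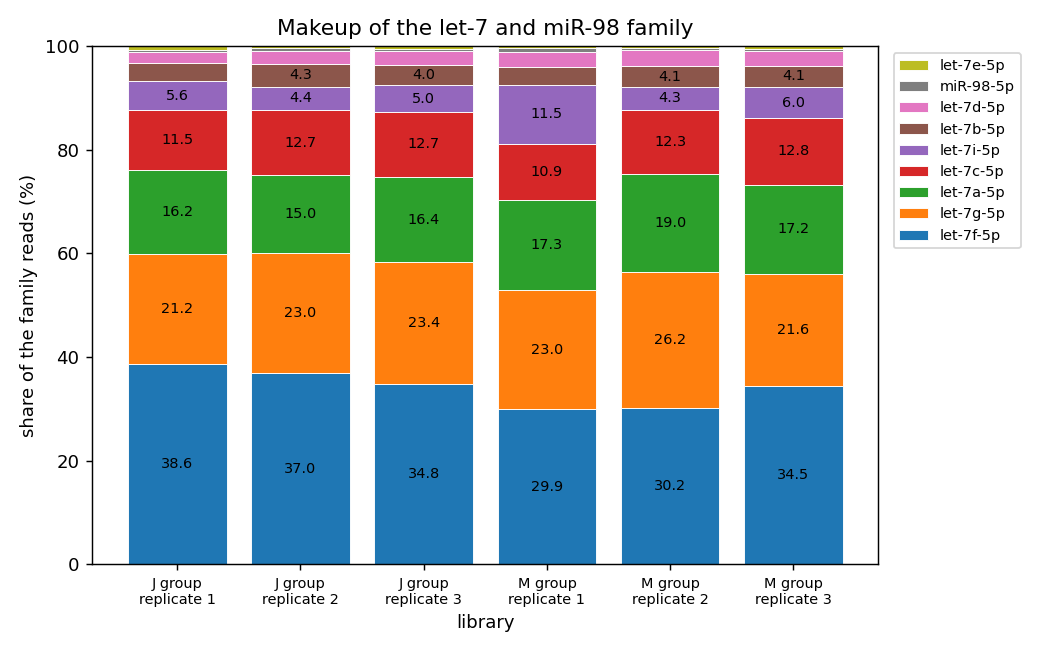
Share of the family's reads (percent) held by each of the 9 members in each library, as stacked bars that sum to 100. mmu-let-7f-5p takes 34.8% to 38.6% in J and 29.9% to 34.5% in M, and the band of mmu-let-7i-5p is widest in M replicate 1.

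Ratios between members, which no scaling of a library can change, were also compared. There were 0.421, 0.406 and 0.472 reads of mmu-let-7a-5p per read of mmu-let-7f-5p in J, and 0.578, 0.628 and 0.498 in M. The ratio of mmu-let-7d-5p to mmu-let-7f-5p was 0.0555 to 0.0739 in J and 0.0793 to 0.0996 in M. In both ratios every J library was below every M library (exact permutation p = 0.1 each). The ratio of mmu-let-7d-5p to mmu-let-7a-5p, 0.132 to 0.169 in J and 0.156 to 0.173 in M, overlapped (exact permutation p = 0.5), as did that of mmu-let-7b-5p to mmu-let-7c-5p (exact permutation p = 0.9). That of mmu-let-7g-5p to mmu-let-7f-5p, 0.551 to 0.673 in J and 0.626 to 0.865 in M, overlapped too (exact permutation p = 0.2). Those of mmu-let-7c-5p and mmu-let-7e-5p to mmu-let-7a-5p also overlapped (exact permutation p = 0.2 each). So did those of mmu-miR-98-5p to mmu-let-7f-5p (exact permutation p = 0.3) and mmu-let-7i-5p to mmu-let-7g-5p (exact permutation p = 0.6). Altogether 13 ratios were computed, 9 between members and 4 against cluster partners, and they share members, so they are not independent of one another.

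The other strand of each hairpin, the 3p arm, is usually degraded, and its reads stand apart from those of the 5p members in sequence. Of 12 named 3p arms, 10 were found in the table and 9 passed the filter. The 3 arms below are shown because their values turn up in the results, with their own bases 2 to 8 in capitals.

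mmu-let-7d-3p: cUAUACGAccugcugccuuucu

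mmu-let-7i-3p: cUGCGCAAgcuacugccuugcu

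mmu-let-7c-2-3p: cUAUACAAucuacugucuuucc

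The sequence of mmu-let-7c-2-3p is identical to that of mmu-let-7a-1-3p, so that its reads cannot be assigned to either hairpin. None of the 9 tested arms was called in limma, against 5.29% of all tested miRNAs in either direction. With 9 arms, a count of 0 lies near that share. In 3 of the 9 every J library was below every M library, against 9.31% of all tested miRNAs, but in mmu-miR-98-3p, 1 of these 3, J replicate 1 and M replicate 3 both held 4 reads and were apart in RPM only through library size. The arms' median log2 fold change was -0.12, near the -0.13 of all tested miRNAs. mmu-let-7d-3p, the most abundant arm, had 266, 239 and 233 RPM in J and 385, 303 and 272 RPM in M. The groups did not overlap, and its log2 fold change of -0.36 (95% interval -0.86 to 0.14) was in the direction of mmu-let-7d-5p but was not called (unadjusted p = 0.131, adjusted p = 0.71 in limma). M replicate 1 was its highest library, and the log2 fold change was -0.22 without it. mmu-let-7i-3p had 5.33, 6.70 and 6.77 RPM in J and 20.9, 8.21 and 10.2 RPM in M, with M replicate 1 highest as in its 5p arm. Its log2 fold change was -0.86 (unadjusted p = 0.058, adjusted p = 0.71 in limma) and -0.49 without M replicate 1. mmu-miR-98-3p was near the limit of detection, with 4, 0 and 0 reads in J and 6, 4 and 4 in M. The log2 fold changes of other arms were -0.23 for mmu-let-7b-3p, -0.02 for mmu-let-7c-2-3p, 0.01 for mmu-let-7f-1-3p, -0.12 for mmu-let-7f-2-3p and 0.24 for mmu-let-7g-3p. Single libraries moved them, to -0.14 for mmu-let-7b-3p without M replicate 1, -0.034 for mmu-let-7f-2-3p without J replicate 2 and 0.063 for mmu-let-7g-3p without J replicate 1. mmu-let-7e-3p had 0.56 on 3 to 11 reads a library, but 0.32 without J replicate 3, 0.92 without J replicate 1 and 0.99 in edgeR. mmu-let-7c-1-3p was below the filter with 1 to 4 reads.

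The 5p arm exceeded the 3p arm in every library where both had reads. mmu-let-7d had the least unequal arms, with 3.89 to 6.10 reads of the 5p arm per read of the 3p arm. The ratio was 46.2 to 65.3 for mmu-let-7c, 60.4 to 91.2 for mmu-let-7b and 159 to 198 for mmu-let-7f. It was 300 to 510 for mmu-let-7i, 57.6 to 316 for mmu-let-7e and 807 to 2419 for mmu-let-7g, which thus had the most unequal arms. For mmu-let-7c every J library was below every M library, with 56.0, 46.2 and 50.0 in J and 60.3, 64.0 and 65.3 in M (exact permutation p = 0.1), a log2 difference of -0.32. Nearly all 3p reads in that ratio were named mmu-let-7c-2-3p, whose sequence mmu-let-7a-1-3p shares, so some may come from the Mirlet7a-1 hairpin. The arm ratios of the other 6 overlapped between groups, with exact permutation p from 0.2 to 0.9, and log2 differences of -0.999 for mmu-let-7e, -0.70 for mmu-let-7g, -0.27 for mmu-let-7d, -0.11 for mmu-let-7b, -0.07 for mmu-let-7f and 0.16 for mmu-let-7i. J replicate 1 stood apart in J, at 510 against 300 and 330 for mmu-let-7i (328 to 334 in M). For mmu-let-7e it was at 290 against 57.6 and 65.3 (110 to 316 in M). The median log2 difference over all members with a ratio was -0.27, but -0.17 without J replicate 1 and -0.35 without M replicate 1. No ratio was computed for mmu-let-7a, which had no arm of its own name in the table, or for mmu-miR-98, whose 3p arm was at 0 reads in 2 libraries.

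**Figure D5:**
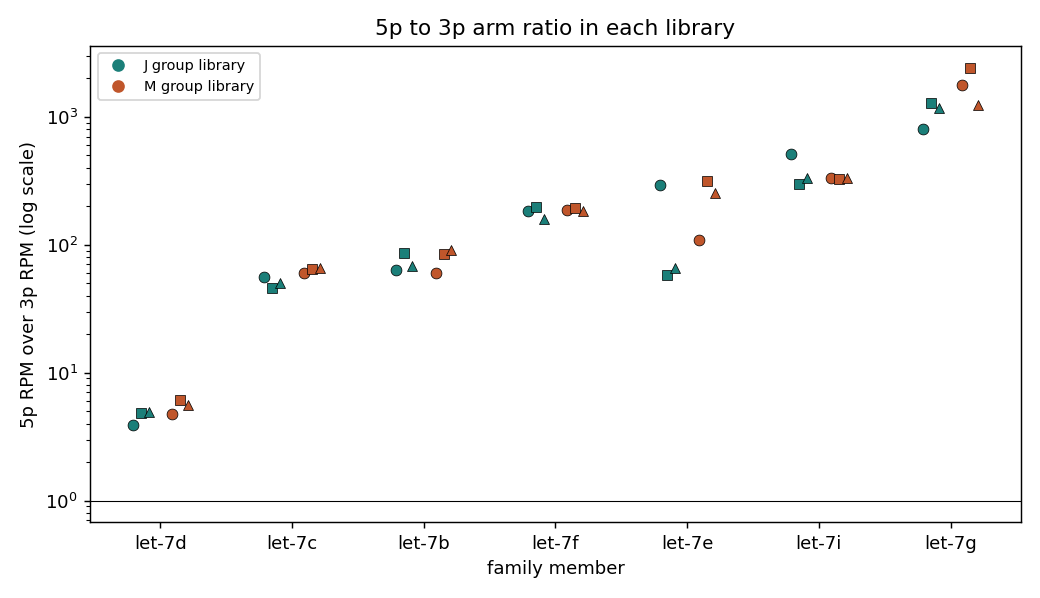
Ratio of 5p to 3p reads (log axis) for the 7 members with an arm in every library, 1 point per library in J and M. Ratios range from 3.89 for mmu-let-7d to 2419 for mmu-let-7g, and only for mmu-let-7c, whose 3p reads may include those of mmu-let-7a-1-3p, do the J and M points not overlap.

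The miRNAs that share a locus with a let-7 hairpin, from the miR-99, miR-100 and miR-125 families, carry other seeds. Of 11 named cluster partners, 10 were found in the table and tested. Of these, 0 were called, against 5.29% of all tested miRNAs in either direction. In 0 were the groups free of overlap, whereas 9.31% of all tested miRNAs were lower in every J library. With 10 miRNAs, counts of 0 lie near these shares. Their median log2 fold change was 0.06, from -0.30 to 0.22. mmu-miR-99a-5p, which lies 656 bases from Mirlet7c-1, was far more abundant than any let-7 member, with 93349, 87931 and 81012 RPM in J and 78911, 83962 and 90884 RPM in M. Its log2 fold change was 0.05 (95% interval -0.20 to 0.30). mmu-miR-100-5p had 0.22 (95% interval -0.21 to 0.64), mmu-miR-99b-5p 0.07, mmu-miR-125b-5p 0.05 and mmu-miR-125a-5p -0.03. With 1 library left out, mmu-miR-100-5p ran from 0.087, without J replicate 1, to 0.33. The lowest partner, mmu-miR-125a-3p at -0.30, ran from -0.50 to -0.14. There were 0.0599 to 0.0697 reads of mmu-let-7c-5p per read of mmu-miR-99a-5p in J and 0.0790 to 0.0916 in M, without overlap (exact permutation p = 0.1). The ratio of mmu-let-7a-5p to mmu-miR-100-5p was 0.731 to 0.888 in J and 1.05 to 1.59 in M, also without overlap (exact permutation p = 0.1). The ratios of mmu-let-7e-5p to mmu-miR-99b-5p and to mmu-miR-125a-5p, its neighbours at 94 and 367 bases, overlapped (exact permutation p = 0.4 and 0.9). Both mmu-let-7a-5p and mmu-let-7c-5p also come from a hairpin without such a partner.

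The seed GAGGUAG was searched in the 1679 mature mouse names of the reference and was found at bases 2 to 8 in 11 of them, the 9 members and 2 others. Of these, mmu-let-7k was in the table with 1 to 6 reads a library, below the filter, and mmu-miR-1961 had no entry among those analysed here. mmu-let-7j, a let-7 by name, has a different seed and held 0 to 5 reads a library. Predicted and plant entries of the table were not searched.

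To place the family among other miRNAs, each of the 129 other miRNAs with a mean above 100 RPM was compared with the family sum by the root mean square difference of their centred log2 levels over the 6 libraries. The 5 nearest were mmu-miR-148b-3p (0.113), mmu-let-7d-3p (0.126), mmu-miR-185-5p (0.135), mmu-miR-320-3p (0.145) and mmu-miR-199a-5p (0.146). By the same measure the members themselves ranged from 0.088 for mmu-let-7c-5p, 0.097 for mmu-let-7g-5p and 0.103 for mmu-let-7a-5p to 0.474 for mmu-let-7i-5p. Since these 5 were picked by likeness to the family sum over the same libraries, lower levels in J were largely set by the choice. mmu-miR-148b-3p had 6062, 5287 and 5302 RPM in J and 8752, 8709 and 7554 RPM in M. mmu-miR-185-5p had 404, 510 and 468 RPM in J and 627, 605 and 583 RPM in M. mmu-miR-320-3p had 91.1, 109 and 94.5 RPM in J and 113, 122 and 98.9 RPM in M, and its groups overlapped. mmu-miR-199a-5p, a marker of stellate and other stromal cells, had 723, 638 and 663 RPM in J and 1078, 994 and 1050 RPM in M. Of the list of 5 stromal miRNAs, 4 were in the table, none at 0 in any library, and 3 were called lower in J, against 3.83% of all tested miRNAs and 10.1% of those above 100 RPM. Their summed level was 12582 to 16890 RPM in J and 25242, 16765 and 20214 RPM in M replicates 1, 2 and 3, so the groups overlapped with or without M replicate 1. Its part in the family's lower level was not tested.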

How the data were processed

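Small RNA libraries were made from mouse liver RNA (NEBNext kit) and sequenced on an Illumina HiSeq. The authors filtered the reads, compared them with Rfam and miRBase and deposited RPM per miRNA, which sums to 1000000 in each library. The submitters' processing notes name mm9. The aligner, its mismatch rule and the handling of reads that match several miRNAs are not given in the sources used here. All 6234 deposited RPM values were within 0.01 of whole reads, which were recovered. These reads allowed edgeR 4.0.16 to be run, an alternative that called 27 miRNAs as lower in J, 1 of them a member.

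Entries with a mean above 1 RPM in a group (548 of the 1039 in the table, which names 762 mouse, 192 predicted and 85 plant miRNAs) were tested with limma 3.58.1 (R 4.3.3; trend, two-sided) on log2(RPM + 1). Adding 1 RPM understates the fold changes of low miRNAs. Thresholds were 0.3 in absolute log2 fold change and an unadjusted p below 0.05, with Benjamini-Hochberg adjustment. After adjustment 0 of 548 passed 0.05 in limma (29 had an unadjusted p below 0.05), 0 in edgeR and 2 in DESeq2 1.42.0, neither a member. Shares and ratios were compared by exact permutation over 20 assignments. A count of 0 allowed up to 3 reads, 0.695 to 1.14 RPM by library, for counting error only.

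Named were the members, their 3p arms, their cluster partners, miRNAs with the same seed and the 5 miRNAs most like the family sum. Members, lists and thresholds were chosen with earlier results of these data known. Same-numbered libraries did not deviate together (correlations 0.0453, 0.0584 and -0.00587), so numbers were not treated as pairs. The steps were tested on simulated data.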

Additional observations from a re-analysis of the deposited data

How the results depend on the processing

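With 3 libraries a group, called members changed with single libraries and with scaling, and the cause was not tested. Under 18 alternatives the 9 members gave 134 unchanged calls, 18 lost, 6 gained and 4 of opposite sign. Called members numbered 4 in the reported fit, 2 under median-of-ratios scaling, 2 under quantile normalization, 1 in edgeR, 1 in DESeq2 and 2 to 5 when 1 library was left out. In the named fits, in that order, 3.83%, 2.37%, 2.01%, 4.93% and 4.2% of all tested miRNAs were called lower in J. The share was 5.84% without J replicate 3, with 2 members called, and 4.01% without M replicate 1, with 5 called. For the other omissions, with 3 members called in each, that share is not given. The 3p arms called numbered 0, then 1 with no filter (mmu-miR-98-3p), 1 without the most abundant miRNA in the scaling and 1 in edgeR (mmu-let-7i-3p in both), and 0 to 1 when 1 library was left out. Of all tested miRNAs edgeR called 4.93% as lower in J. With no filter or without the most abundant miRNA that share is not given. With the replicate number as a block, 5 members were called (3.47% of all tested miRNAs called lower in J), mmu-let-7i-5p being added, and no other call among the members, 3p arms and cluster partners changed. The log2 ratio of the family sum was -0.26 under median-of-ratios scaling and -0.42 to -0.34 when 1 library was left out. Reads near the limit of 3 a library (mmu-let-7e-3p, mmu-miR-98-3p) cannot show moderate differences.

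Signs turned as follows, all below the thresholds. Under median-of-ratios scaling the log2 fold change was 0.087 for mmu-let-7c-2-3p and 0.072 for mmu-miR-125a-5p. Under quantile normalization it was 0.088 for mmu-let-7e-5p, 0.29 for mmu-let-7c-2-3p, 0.19 for mmu-let-7f-2-3p, 0.27 for mmu-miR-125a-5p and -0.077 for mmu-miR-99a-5p. In edgeR it was 0.040 for mmu-let-7e-5p, 0.084 for mmu-let-7c-2-3p and 0.053 for mmu-miR-125a-5p. In DESeq2 it was 0.038 for mmu-let-7e-5p, 0.091 for mmu-let-7c-2-3p, 0.0016 for mmu-let-7f-2-3p and 0.057 for mmu-miR-125a-5p. Without the most abundant miRNA it was -0.023 for mmu-let-7f-1-3p. When 1 library was left out it ran from -0.36 to 0.10 for mmu-let-7e-5p, -0.093 to 0.064 for mmu-let-7c-2-3p, -0.10 to 0.094 for mmu-let-7f-1-3p, -0.00117 to 0.10 for mmu-miR-99a-5p, -0.015 to 0.22 for mmu-miR-99b-5p, -0.16 to 0.49 for mmu-miR-99b-3p, -0.20 to 0.17 for mmu-miR-125a-5p, -0.19 to 0.35 for mmu-miR-125b-5p and -0.00318 to 0.11 for mmu-miR-125b-2-3p.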

Other observations

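Markers of other cell types a liver can hold were also summed, and they overlapped between groups. Of 5 bile duct epithelium miRNAs, 5 were in the table and summed to 950 to 2379 RPM in J and 1203 to 4298 RPM in M, with M replicate 1 highest. The 1 endothelial miRNA of 2 listed had 4166 to 6718 RPM in J and 4486 to 5579 RPM in M, and 2 of 3 red blood cell miRNAs summed to 4286 to 6232 RPM in J and 2534 to 9724 RPM in M. None of these markers was at 0 reads in any library, and 0 of them were called. Likewise 0 of the 5 leukocyte and 0 of the 3 hepatocyte markers were called. The thresholds called 5.29% of all tested miRNAs in either direction, so counts of 0 in lists this short lie near that share. The part of these markers in the family's levels was not tested.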
